A study of Homo sapiens with 9 samples.

Results

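The immediate early and AP-1 mRNAs described here are the transcripts of 10 genes: JUN, JUNB, JUND, FOS, FOSL1, FOSL2, ATF3, MYC, IER2 and EGR1. They were chosen by name as short-lived mRNAs of the early response to growth signals, and 41 listed transcripts of them were summed per gene. All 10 passed the filter on low counts that left 16181 of 56347 matched genes for testing. RNA was sequenced from nuclear and cytoplasmic fractions of HEK293 cells, a human embryonic kidney line (the study's methods name its derivative HEK293T). Cells received a control siRNA or siRNAs against WTAP and KIAA1429 (VIRMA), both subunits of the methyltransferase complex that places m6A, a methyl group on adenosines of mRNA. The comparison addresses whether loss of that complex shifts mRNAs between nucleus and cytoplasm. The 9 libraries are 3 control nuclear, 3 RNAi nuclear, 2 RNAi cytoplasmic (replicates 1 and 2) and 1 control cytoplasmic (replicate 2), and their totals ran from 11627403 to 19036141 estimated counts.

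AP-1 is a dimer of a JUN protein with a second JUN, a FOS or an ATF protein. Dimers of JUN with JUN or FOS proteins bind DNA at the TPA response element. JUN, JUNB and JUND are the JUN subunits of AP-1, and FOS, FOSL1 and FOSL2 are FOS subunits that bind DNA only with a partner. ATF3 is a stress-induced relative, MYC an E-box transcription factor, EGR1 a zinc-finger transcription factor and IER2 a nuclear protein of the early response. Growth factor signals reach FOS, EGR1 and similar genes through ERK kinases and serum response factor, which binds the CArG box with ELK proteins. Transcription starts within minutes and ends quickly, and many of the mRNAs carry AU-rich elements in the 3′ UTR that shorten their life.

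The promoters of EGR1, FOS and JUN are shown because EGR1 and FOS varied most between libraries and JUN was the member whose nuclear/cytoplasmic ratio was called after RNAi. The 500 bases before the annotated start of the canonical transcript were searched on both strands in GRCh37. EGR1 held 5 CArG boxes, starting 418, 380, 364, 105 and 83 bases upstream, and FOS held 1, starting 314 bases upstream. A CArG box was present in 2.23% of 13398 promoters of tested protein-coding genes, and 3 or more in 0.00746%. No other member held one in this window. In the sequences below, 5′ to 3′ on the coding strand, capitals mark CArG boxes in EGR1 and FOS and the letters TGACATCA, a variant of the cAMP response element, in JUN. The windows are on the plus strand for EGR1 (chr5:137800750-137800999) and FOS (chr14:75745217-75745466) and on the minus strand for JUN (chr1:59249720-59249969).
EGR1: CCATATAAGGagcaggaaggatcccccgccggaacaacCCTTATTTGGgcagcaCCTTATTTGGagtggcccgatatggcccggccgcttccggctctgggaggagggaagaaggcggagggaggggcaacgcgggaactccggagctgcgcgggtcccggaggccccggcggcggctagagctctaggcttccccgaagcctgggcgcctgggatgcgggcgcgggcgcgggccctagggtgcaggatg
FOS: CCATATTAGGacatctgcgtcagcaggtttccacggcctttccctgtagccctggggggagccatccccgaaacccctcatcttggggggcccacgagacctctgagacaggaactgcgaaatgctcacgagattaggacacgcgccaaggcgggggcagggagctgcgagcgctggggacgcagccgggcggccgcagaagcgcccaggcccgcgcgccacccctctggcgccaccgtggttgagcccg
JUN: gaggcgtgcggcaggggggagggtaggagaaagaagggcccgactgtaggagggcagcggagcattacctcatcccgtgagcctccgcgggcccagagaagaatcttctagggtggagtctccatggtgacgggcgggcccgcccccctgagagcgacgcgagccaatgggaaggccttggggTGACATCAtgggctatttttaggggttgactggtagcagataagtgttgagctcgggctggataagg
The letters TGACATCA occurred in 1.93% of promoters and, of the members, in JUN alone. The cAMP response element TGACGTCA occurred in 3.58% of promoters and, of the members, in JUND alone, 200 bases upstream. The TPA response element TGANTCA occurred in 7.54% of promoters and in no member. The letters TATAAA occurred in 12.3% of promoters and in 4 of 10 members (JUNB, FOS, ATF3 and MYC), in each with a copy between 29 and 33 bases upstream. A match is a description of the letters and no measure of binding.

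AU-rich pentamers and the letters GGACT, one form of the sequence in which m6A is placed, were counted in the canonical transcripts. The 3′ UTR of FOS held 5 copies of ATTTA, a density above that of 95.4% of 13306 genes. The window of FOS richest in them (chr14:75748750-75748779, plus strand, exonic, 3′ UTR) is shown with the overlapping copies in capitals.
FOS: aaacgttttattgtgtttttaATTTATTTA
MYC held 6 copies, FOSL2 9, JUN 3, ATF3 3, JUNB 2 and EGR1, FOSL1 and JUND 1 each, and IER2 held none. In all, 5 of 10 members had at least 3 copies, against 46.31% of all genes. GGACT occurred 6 times in the IER2 mRNA, a density of 2.84 per kb that exceeded 97.8% of genes (median 0.936 per kb). JUN held 5 copies (1.54 per kb), FOS 3 (1.43 per kb), MYC 5 (1.34 per kb) and EGR1 none. No methylation was measured in these libraries.

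The targeted mRNAs were lower in every library labelled RNAi than in any control library of the same fraction. WTAP stood at 24.1, 27.6 and 23.0 CPM (counts scaled to library size by TMM) in control nuclei and at 12.2, 14.3 and 15.6 CPM in RNAi nuclei. It stood at 37.5 CPM in the control cytoplasm and at 10.8 and 11.9 CPM in the RNAi cytoplasm. VIRMA fell by 1.08 on the log2 scale in the nucleus (SE 0.21, adjusted p = 0.0314, edgeR quasi-likelihood test) and by 2.07 in the cytoplasm (SE 0.31, adjusted p = 0.00268). The nuclear RNAs MALAT1, NEAT1, KCNQ1OT1 and MEG3 summed to 31.8 to 32.5 TPM (a share of all transcripts, scaled for length) in control nuclei and 35.0 to 37.8 TPM in RNAi nuclei. They summed to 4.55 TPM in the control cytoplasm and to 1.88 and 2.07 TPM in the RNAi cytoplasm. Mitochondrially encoded mRNAs took 18.0% to 27.3% of TPM in the nuclear libraries and 11.9% to 18.1% in the cytoplasmic ones. The 5 measured HEK293 markers summed to 120.5 to 125.6 TPM in control nuclei and to 160.4 to 172.9 TPM in RNAi nuclei, without overlap, and to between 144.8 and 207.6 TPM in cytoplasm. Of them only NEFM did not overlap between the nuclei, at 51.7 to 70.8 TPM in control and 99.1 to 99.7 TPM in RNAi. The ranges of INA, PAX2, LIN28B and IGF2BP1 overlapped. Of 6 markers of other cell types PTPRC, ALB, HBB and CDH5 were at or near 0, with COL1A1 supplying most of the 12.6 to 18.0 TPM of that list. Replicates of one group differed most between control nuclear replicates 1 and 2 (chi-square per degree of freedom 66.9, against 5.61 to 24.6 for the other pairs).

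On the length-scaled level, the mRNAs spanned a wide range. Mean TPM over the 9 libraries was 305.7 for MYC (210.9 to 568.4), 157.6 for JUND (120.7 to 203.0), 83.2 for JUN (52.0 to 120.3) and 73.2 for EGR1 (11.4 to 189.6). It was 59.2 for IER2 (23.1 to 134.5), 45.5 for ATF3 (28.5 to 57.0), 26.5 for FOS (6.87 to 73.8), 16.5 for JUNB (9.70 to 33.1), 9.49 for FOSL1 (7.17 to 12.1) and 1.92 for FOSL2 (0.956 to 2.67). The ranges of neighbours in this order overlapped except between MYC and JUND, JUND and JUN, and FOSL1 and FOSL2. The place of JUND rests on JUND-202, a listed model of 500 nt estimated at 67.3 to 155 TPM. JUND-201, the long model, stood at 32.6 to 60.9 TPM. On CPM, which is not scaled for length, JUND (98.2 to 171.5) lay below JUN (174.3 to 346.5). The spread across libraries was largest for EGR1, whose highest CPM was 10.9 times its lowest, and for FOS at 7.22 times, and smallest for ATF3 at 1.5 times. The lowest estimated counts were 87 for FOS and 96 for FOSL2, against a floor of 3 counts that corresponds to 0.19 to 0.303 CPM.

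**Figure D1:**
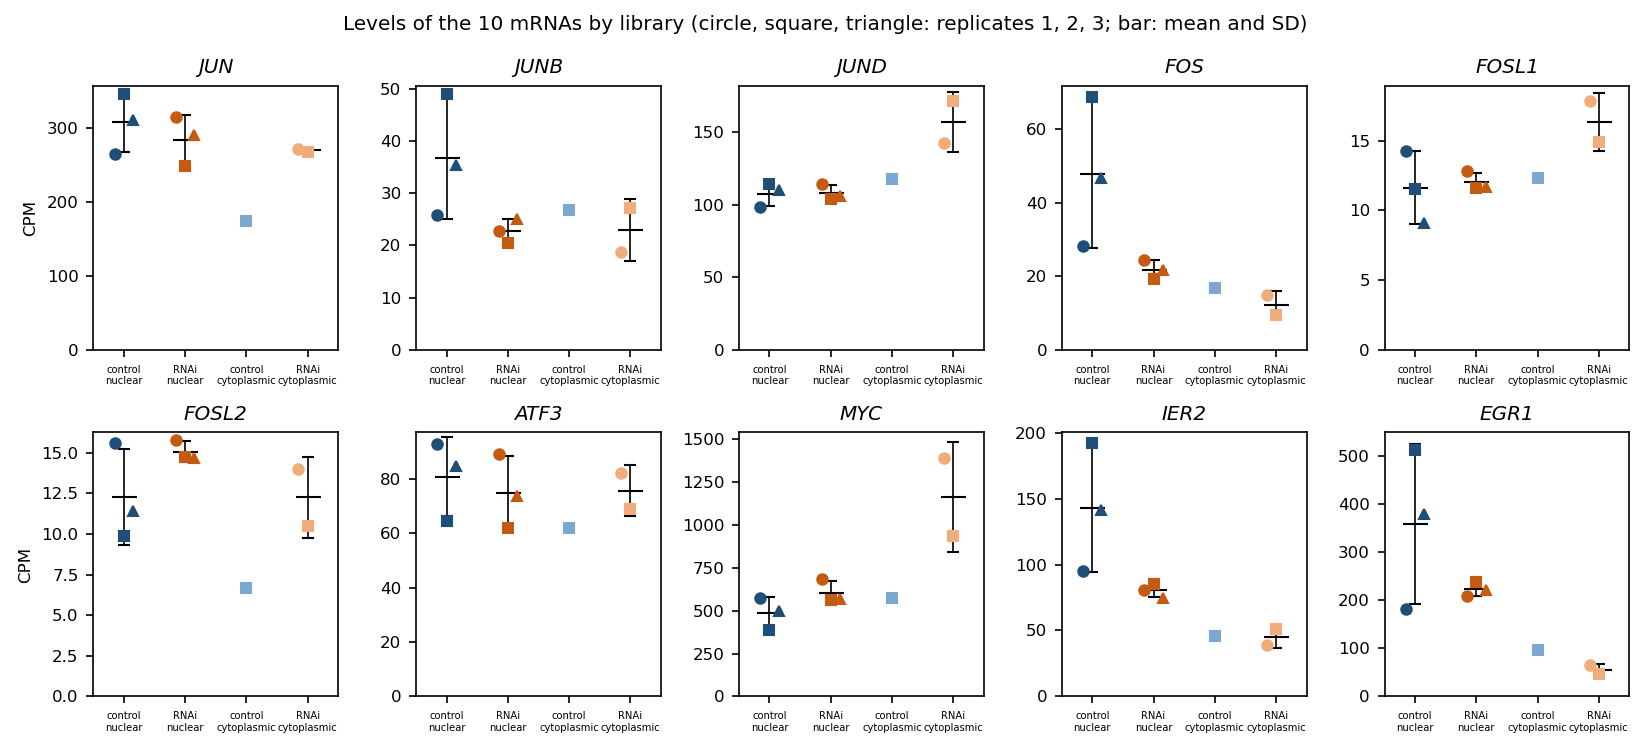
TMM-scaled CPM of each mRNA (y axis, from 0, one scale per panel) in the 9 libraries by group (x axis), with replicates 1, 2 and 3 as circle, square and triangle and bars for mean and SD where a group has more than 1 library. The RNAi nuclei span at most 1.44-fold, for ATF3, whereas EGR1, FOS and IER2 spread over 2-fold or more among the control nuclei.

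In control cells, EGR1, IER2, FOS, FOSL2 and JUN were higher in the nucleus than in the cytoplasm. This is 5 of 10 members, beside 28% of all tested genes called higher in the nucleus, and no member was called lower. A gene was called when its log2 fold change exceeded 0.5 in size and its Benjamini-Hochberg adjusted p was under 0.1 in the edgeR quasi-likelihood test over all genes. All control comparisons of fractions rest on 1 cytoplasmic library, whose spread was taken from the other groups. In bulk fractions, fewer mRNA molecules per cell and fewer cells holding them cannot be told apart.

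EGR1 had 97.4 CPM in the control cytoplasm and 182, 514 and 380 CPM in control nuclei. Every nuclear library lay above the cytoplasmic one, and the log2 difference was 1.88 (SE 0.46, adjusted p = 0.00704, edgeR). IER2 had 45.9 CPM in the control cytoplasm and 95.1, 192 and 141 CPM in control nuclei, a log2 difference of 1.64 (SE 0.33, adjusted p = 0.00255). FOS had 16.7 CPM in the control cytoplasm and 28.2, 68.6 and 46.8 CPM in control nuclei, a log2 difference of 1.52 (SE 0.42, adjusted p = 0.0136). These 3 mRNAs encode nuclear proteins of the first transcriptional wave. For them, as for FOSL2 and JUN below, every control nuclear value lay above the single cytoplasmic value. How many of all tested genes showed this separation was not counted. FOSL2 rose from 6.69 CPM to 15.6, 9.88 and 11.4 CPM (log2 difference 0.88, SE 0.27, adjusted p = 0.0223). JUN rose from 174 CPM to 266, 346 and 312 CPM (log2 difference 0.82, SE 0.18, adjusted p = 0.00353). Without control nuclear replicate 2, the library farthest from replicate 1, the log2 differences were 1.54 for EGR1, 1.37 for IER2, 1.17 for FOS, 1.03 for FOSL2 and 0.74 for JUN, all still called, and ATF3 was called as well (0.53, adjusted p = 0.0434). FOSL2 was not called when only fractions of the same replicate number were used (0.54, adjusted p = 0.161).

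In RNAi cells, EGR1, IER2 and FOS were again higher in the nucleus, which is 3 members beside 32.9% of all genes called higher, and MYC and JUND were lower there, which is 2 members beside 24.9% called lower. EGR1 had 64.5 and 47.2 CPM in the cytoplasm and 210, 239 and 221 CPM in the nucleus, so the nuclear values were all more than 3 times the cytoplasmic ones. Its log2 difference was 2.00 (SE 0.35, adjusted p = 7.5e-04). IER2 had 39.2 and 50.8 CPM in the cytoplasm and 80.7, 85.4 and 74.8 CPM in the nucleus (log2 difference 0.84, SE 0.25, adjusted p = 0.0131). FOS had 14.8 and 9.51 CPM in the cytoplasm and 24.6, 19.3 and 21.6 CPM in the nucleus (log2 difference 0.83, SE 0.34, adjusted p = 0.0519). The FOS call was lost without RNAi cytoplasmic replicate 2 (log2 difference 0.59, adjusted p = 0.254), without RNAi nuclear replicate 1 (0.75, adjusted p = 0.125) and at an adjusted p of 0.05, and that of IER2 without RNAi cytoplasmic replicate 1 (0.66, adjusted p = 0.11). MYC had 1389 and 934.9 CPM in the cytoplasm and 683, 560 and 569 CPM in the nucleus, with no overlap (log2 difference -0.94, SE 0.19, adjusted p = 0.00159). The JUN difference seen in control cells was 0.08 (SE 0.13) in RNAi cells.

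**Figure D2:**
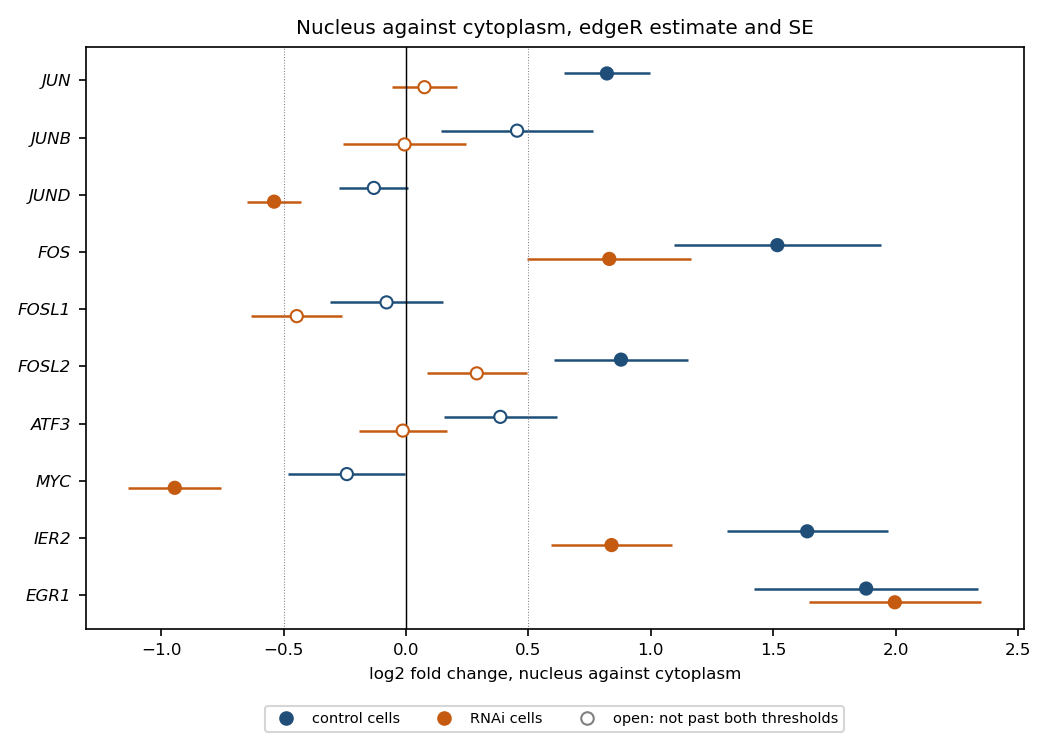
Log2 fold change of nucleus against cytoplasm (x axis) with SE from edgeR for each mRNA in control cells (blue) and RNAi cells (orange), filled where past both thresholds and with dotted lines at 0.5 on either side of 0. EGR1, IER2 and FOS lie to the right in both treatments, and MYC and JUND lie past -0.5 in RNAi cells.

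The direction of JUND depended on the treatment of transcript length. On counts it was lower in the nucleus of RNAi cells (142 and 172 CPM in the cytoplasm and 114, 104 and 106 CPM in the nucleus, log2 difference -0.54, SE 0.11, adjusted p = 0.00193). On log2(TPM + 1) with limma it was 0.28 higher (adjusted p = 0.199), and with a length offset the difference was -0.15 (adjusted p = 0.246). The call was also lost with library size as the only scaling (-0.26, adjusted p = 0.162), with genes held to 10 counts in every sample (-0.35), with fractions of the same number only (-0.47), without control nuclear replicate 1 (-0.50) and without RNAi cytoplasmic replicate 2 (-0.37). Its 2 listed models differed in opposite ways between fractions. JUND-201, with 1 exon and 1870 nt, stood at 53.4 to 60.9 TPM in the cytoplasm and 32.6 to 48.0 TPM in the nucleus. JUND-202, a model of 500 nt in 2 exons, stood at 67.3 to 88.8 TPM in the cytoplasm and 112 to 155 TPM in the nucleus. The ranges did not overlap for either model, and which model a read was given to is an estimate.

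After WTAP and KIAA1429 RNAi, FOS and IER2 were lower in the nucleus, 2 of 10 members beside 2.42% of all genes called lower, and no member was called higher. FOS stood at 28.2, 68.6 and 46.8 CPM in control nuclei and at 24.6, 19.3 and 21.6 CPM in RNAi nuclei, so the highest RNAi value lay below the lowest control value. It fell by 1.13 on the log2 scale (SE 0.28, adjusted p = 0.0545, edgeR). IER2 stood at 95.1, 192 and 141 CPM in control nuclei and at 80.7, 85.4 and 74.8 CPM in RNAi nuclei, also without overlap, and fell by 0.83 (SE 0.21, adjusted p = 0.0597). Without control nuclear replicate 2 both calls held, with FOS at -0.77 (adjusted p = 0.0759) and IER2 at -0.55 (adjusted p = 0.0813). Both were lost when control nuclear replicate 3 or any single RNAi nuclear replicate was left out, with adjusted p from 0.136 to 0.188 for FOS and from 0.162 to 0.213 for IER2, and both were lost on log2 TPM with limma and at an adjusted p of 0.05. Calls over all genes in the nucleus also fell, from 792 to 88 without control nuclear replicate 3. They fell to 256, 106 and 52 without RNAi nuclear replicates 1, 2 and 3.

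The values of the other members in the nucleus did not pass both thresholds. JUNB had 25.9, 48.9 and 35.4 CPM in control nuclei and 22.8, 20.4 and 25.0 CPM in RNAi nuclei, without overlap (log2 difference -0.69, SE 0.22, adjusted p = 0.107, edgeR). EGR1 values overlapped between the treatments (log2 difference -0.68, SE 0.29, adjusted p = 0.212). Both passed without control nuclear replicate 1, JUNB at -0.89 (adjusted p = 0.0271) and EGR1 at -1.003 (adjusted p = 0.0105), with same-numbered fractions only (-1.13 and -1.15) and with no filter on low counts (-0.72 and -0.71). JUNB also passed with the DESeq2 Wald test (-0.67, adjusted p = 0.0498) and without either RNAi cytoplasmic replicate (adjusted p = 0.0979 and 0.0955). MYC differed by 0.32 (SE 0.17, adjusted p = 0.324), JUN by -0.11 (SE 0.12) and JUND by 0.01 (SE 0.10). FOSL1, FOSL2 and ATF3 lay between -0.11 and 0.29. The median of the members was -0.11, against -0.00113 for all tested genes.

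The levels of EGR1, FOS, IER2 and JUNB differed among the control nuclei themselves. Replicate 2 had the highest value, replicate 3 the next and replicate 1 the lowest for these 4 mRNAs and for JUN and JUND, an order that 27.6% of all tested genes shared. For MYC, ATF3 and FOSL2 replicate 1 was highest and replicate 2 lowest, as for 28.2% of genes. Replicate 2 exceeded replicate 1 by 2.83 times for EGR1, 2.43 for FOS, 2.02 for IER2 and 1.89 for JUNB. A ratio of at least 2 occurred in 3 of 10 members and in 3.32% of all genes. It occurred in 1 of 18 other immediate early transcription factor genes (FOSB, the fourth FOS family subunit) and in 1 of 30 immediate early effectors and feedback regulators (DUSP6, a phosphatase of ERK). FOSB had 27.4, 79.0 and 53.0 CPM in control nuclei. In the RNAi nuclei the highest replicate was at most 1.44 times the lowest for any member. The only control cytoplasmic library carries replicate number 2, the number of the control nucleus with the highest EGR1, FOS and IER2. What set the control nuclei apart was not tested.

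**Figure D3:**
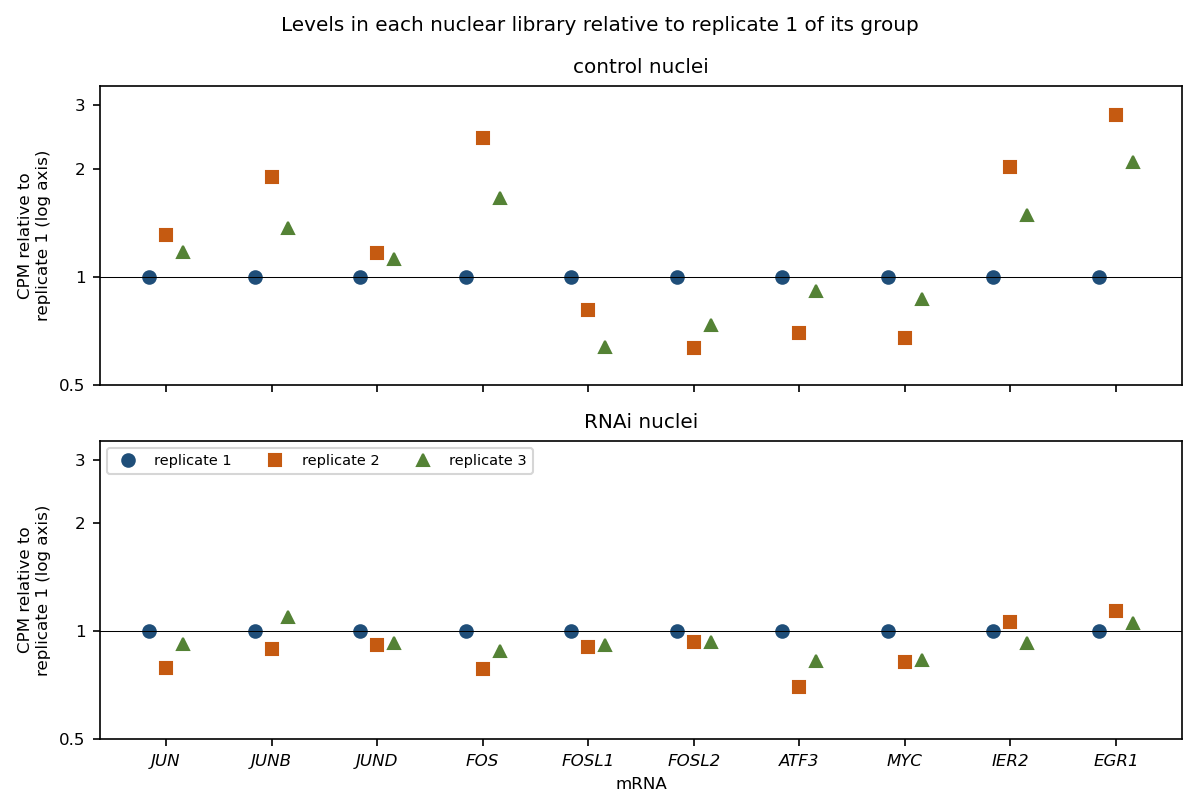
CPM of each mRNA in nuclear replicates 1, 2 and 3 (circle, square, triangle) divided by replicate 1 of the same group (y axis, log scale), with control nuclei above and RNAi nuclei below. EGR1, FOS, IER2 and JUNB reach 1.89 to 2.83 in control replicate 2, whereas no RNAi mRNA spans more than 1.44-fold.

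In the cytoplasm, MYC, FOSL2 and JUN were higher after RNAi. This is 3 of 10 members beside 10.4% of all genes called higher, and no member was called lower. MYC had 573 CPM in the control library and 1389 and 934.9 CPM in the RNAi libraries, a log2 difference of 1.02 (SE 0.27, adjusted p = 0.0243, edgeR). FOSL2 had 6.69 CPM in the control library and 14.0 and 10.5 CPM in the RNAi libraries, a difference of 0.88 (SE 0.29, adjusted p = 0.0551). JUN had 174 CPM in the control library and 273 and 268 CPM in the RNAi libraries, a difference of 0.63 (SE 0.18, adjusted p = 0.0345). JUND differed by 0.41 (SE 0.15, adjusted p = 0.0818), under the threshold of 0.5. EGR1 had 97.4 CPM in the control library and 64.5 and 47.2 CPM in the RNAi libraries (log2 difference -0.80, SE 0.43, adjusted p = 0.221), and it passed without control nuclear replicate 1 (-0.85, adjusted p = 0.0146). IER2 values lay on both sides of the control value (-0.03, SE 0.32). The single control cytoplasmic library gives no spread of its own. With library size as the only scaling, which moved the median of all genes to -0.236, MYC alone was called, and no member was called on log2 TPM with limma. JUN was also lost without RNAi cytoplasmic replicate 2 (adjusted p = 0.105), and FOSL2 without RNAi cytoplasmic replicate 1 (adjusted p = 0.195), without control nuclear replicate 3 (adjusted p = 0.102) and at an adjusted p of 0.05.

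The nuclear/cytoplasmic ratio of JUN was lower after RNAi, the only member called of 10, beside 7.87% of all genes called lower, and no member was called higher (10.4% of all genes). By replicate number, JUN was 1.99 times as high in the nucleus as in the cytoplasm in control replicate 2 and 1.15 and 0.928 times in RNAi replicates 1 and 2. For JUN, control nuclear replicate 2 was the highest control nucleus (346.5 CPM, against 265.5 and 311.8 CPM). The log2 change of its ratio was -0.75 (SE 0.22, adjusted p = 0.0496, edgeR interaction of siRNA and fraction). Its nuclear and cytoplasmic values lay further apart in control cells than in RNAi cells. The call held without control nuclear replicate 2 (-0.65, adjusted p = 0.0457). It was lost without control nuclear replicate 3 (-0.69, adjusted p = 0.128), without RNAi cytoplasmic replicate 2 (-0.71, adjusted p = 0.117), with library size only (-0.48, adjusted p = 0.356) and on log2(TPM + 1) with limma (-0.42, adjusted p = 0.562).

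Estimates for 9 of 10 members were below 0, with EGR1 the exception at 0.12 (SE 0.52), and all share the 1 control cytoplasmic library. The log2 difference of the ratio was -0.80 for IER2 (SE 0.39, adjusted p = 0.214), -0.70 for MYC (SE 0.31, adjusted p = 0.174) and -0.69 for FOS (SE 0.52, adjusted p = 0.425). IER2 passed without control nuclear replicate 1 (-0.97, adjusted p = 0.0326, edgeR), with same-numbered fractions only (-1.10, adjusted p = 0.0484) and with no filter on low counts (-0.79, adjusted p = 0.00783). MYC passed without control nuclear replicate 2 (-0.85, adjusted p = 0.0599, edgeR), without RNAi cytoplasmic replicate 2 (-0.92, adjusted p = 0.0965) and with no filter (-0.69, adjusted p = 0.0071). By replicate number, IER2 was 4.19 times as high in the nucleus in control cells and 2.06 and 1.68 times in RNAi cells, and FOS 4.1 against 1.66 and 2.03. EGR1 was 5.28 times as high in control cells and 3.26 and 5.07 times in RNAi cells, and MYC 0.674 against 0.492 and 0.598. The control values here use nuclear replicate 2, the highest control nucleus for IER2, FOS and EGR1 and the lowest for MYC. In control nuclear replicate 1, IER2 had 95.1 CPM and FOS 28.2 CPM, against 45.9 and 16.7 CPM in the control cytoplasm. In RNAi replicate 1, IER2 had 80.7 CPM in the nucleus and 39.2 CPM in the cytoplasm, and FOS 24.6 and 14.8 CPM. The median log2 difference over the members was -0.524 and over all tested genes -0.0467. With library size only these medians were -0.247 and 0.233, with the members again below all genes. Mitochondrially encoded mRNAs had a median of -0.738 for the ratio and 0.667 in the cytoplasm, with none of 8 called. The 3 tested nuclear RNAs were all called higher for the ratio, with a median of 1.33, and the 1 tested marker of other cell types was called lower. The part of these fraction differences in the members' values was not tested.

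**Figure D4:**
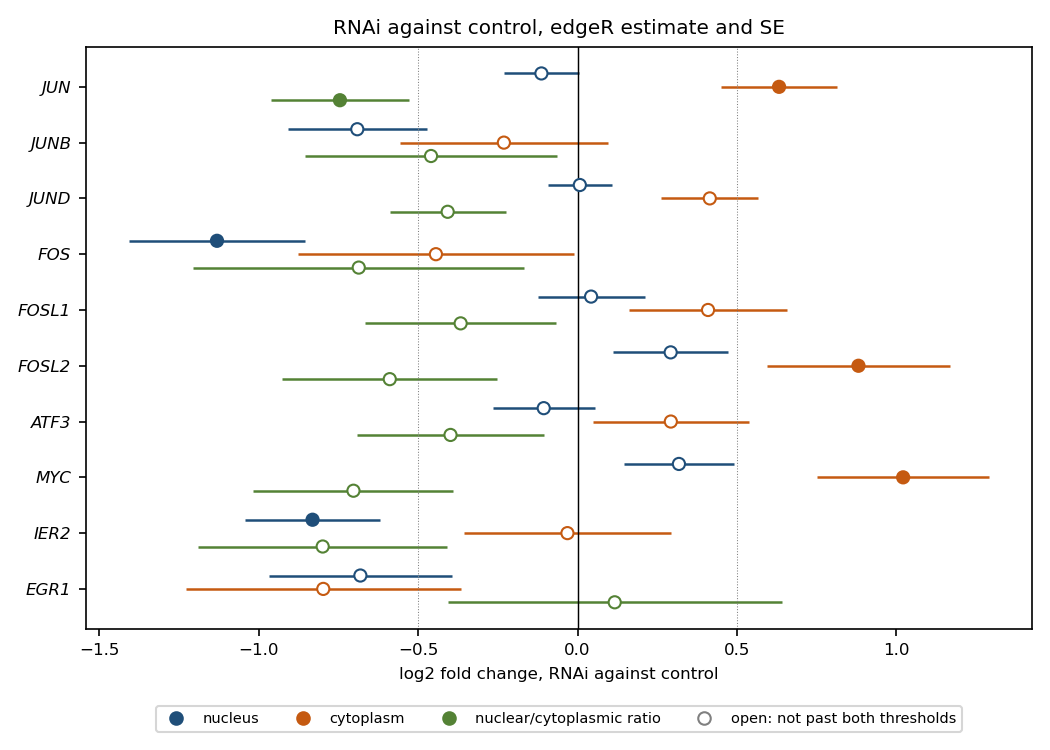
Log2 fold change after WTAP/KIAA1429 RNAi (x axis) with SE from edgeR for each mRNA in the nucleus (blue), in the cytoplasm (orange) and for the nuclear/cytoplasmic ratio (green), filled where past both thresholds. FOS and IER2 are filled at -1.13 and -0.83 in the nucleus, MYC, FOSL2 and JUN at 1.02, 0.88 and 0.63 in the cytoplasm, and JUN alone at -0.75 for the ratio.

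JUN and JUNB are intronless: JUN lies at chr1:59246463-59249719 on the minus strand and JUNB at chr19:12902300-12904129 on the plus strand, each with 1 listed transcript of 1 exon. JUND is intronless by its long model and counts here as spliced, because JUND-202 has 2 exons and the highest TPM. For the 2 intronless members the median log2 change of the ratio was -0.603 and 1 was called, and for the 8 spliced members it was -0.498 and none was called. Over all tested protein-coding genes the median was -0.105 for 287 intronless genes, of which 9.06% were called, and -0.0767 for 13187 spliced genes, of which 20.7% were called. With the top transcript chosen by estimated counts, JUND joined the intronless members and the medians were -0.46 for 3 intronless and -0.589 for 7 spliced members. The order of the medians thus turned with this choice, and with so few intronless members no test was made. In the nucleus the medians were -0.402 for the intronless and -0.0496 for the spliced members, and -0.0646 and -0.0147 for all such genes. In the cytoplasm they were 0.2 and 0.351 for the members, and 0.00599 and 0.0395 for all such genes. With the top transcript chosen by estimated counts, the members' medians were -0.114 and -0.106 in the nucleus and 0.415 and 0.292 in the cytoplasm.

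Transcript models that hold intron sequence took a larger share of estimated TPM in nuclear than in cytoplasmic libraries for 2 of the 4 members tested. The share was not computed for other genes, so whether the difference is particular to these members was not tested. These were FOS (chr14:75745529-75748933, plus strand) and ATF3 (chr1:212738676-212794119, plus strand). Reads within introns were not counted apart from the models, and which model a read was given to is an estimate. For each gene, TPM was summed over listed transcripts with at least 50 nt of exon inside an intron of the canonical transcript. These transcripts took 64.4% to 75.5% of FOS TPM in the 6 nuclear libraries and 32.6% to 41.6% in the 3 cytoplasmic ones, a difference of 31.3 percentage points, which was 50.9 points when at least 200 nt of intron were required and 31.3 with at least 20 nt. They took 49.4% to 61.4% of ATF3 TPM in nuclei and 16% to 25.9% in cytoplasm, a difference of 33.4 points under all 3 minimum lengths. For both genes the fractions did not overlap (exact permutation test, two-sided, p = 0.0238, the smallest this design allows, and 0.0476 after Benjamini-Hochberg adjustment over the 4 genes tested). FOSL2 (0% to 51.1% in cytoplasm, 2.92% to 60.4% in nuclei, exact permutation p = 0.286) and IER2 (3.96% to 8.89% and 4.14% to 9.39%, exact permutation p = 0.5) overlapped between fractions. The FOSL2 difference ran from 1.57 to 31.7 points over the alternatives. FOSL1, MYC and EGR1 had no listed transcript of this kind. The permutation test pooled control with RNAi libraries within each fraction and ignored treatment and replicate number. This measure was chosen after the transcript values had been seen, so its p-values only describe these libraries.

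The models behind it were few. FOS-204 stood at 5.95 to 20.2 TPM in nuclei and 0 to 1.97 TPM in cytoplasm, and FOS-208 at 5.04 to 16.4 TPM and 0 to 1.41 TPM. FOS-205, with 115 nt of intron, overlapped between fractions, at 0 to 6.31 TPM in nuclei and 1.45 to 3.21 TPM in cytoplasm. ATF3-208, annotated as a retained intron, stood at 11.8 to 23.7 TPM in nuclei and 3.15 to 6.87 TPM in cytoplasm, whereas the spliced ATF3-202 stood at 21.6 to 26.5 TPM and 23.9 to 32.7 TPM. The FOS and ATF3 shares overlapped between control and RNAi nuclei, with FOS at 64.4% to 70.1% in control and 66.2% to 75.5% in RNAi nuclei and ATF3 at 49.4% to 52.9% and 52.0% to 61.4%.

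**Figure D5:**
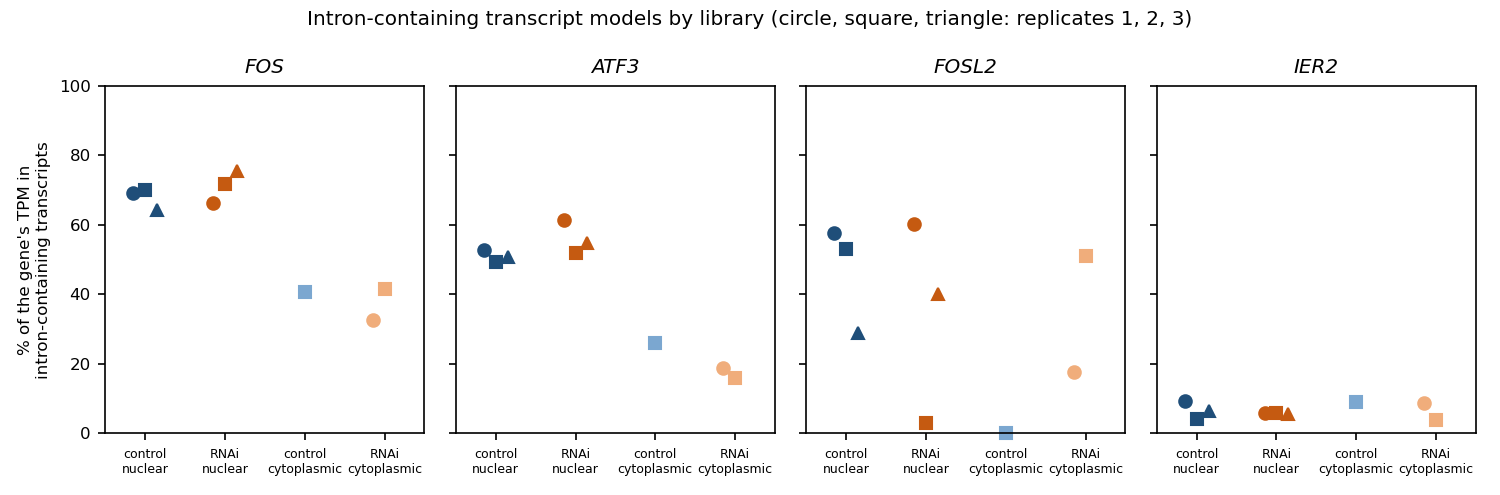
Share of each gene's TPM in transcript models that hold intron sequence (y axis, percent) in the 9 libraries by group (x axis), with replicates 1, 2 and 3 as circle, square and triangle. For FOS and ATF3 every nuclear library lies above every cytoplasmic library, and for FOSL2 and IER2 the fractions overlap.

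Other genes of the response were counted in the same fit. Of 18 other immediate early transcription factor genes tested, none was called for the ratio, and 2 fell in the nucleus (2.42% of all genes): FOSB (log2 difference -1.23, SE 0.30, adjusted p = 0.0542, edgeR) and ID1, an inhibitor of basic helix-loop-helix factors (-0.71, SE 0.21, adjusted p = 0.0963). Of 30 other immediate early effectors and feedback regulators, 5 had a lower ratio and none a higher one, beside 7.87% of all tested genes lower and 10.4% higher. The largest changes were in RHOB, a small GTPase (-1.06, SE 0.18, adjusted p = 0.00747), and in the MAP kinase phosphatases DUSP1 (-0.65, SE 0.18, adjusted p = 0.0448) and DUSP8 (-0.65). The call of DUSP8 was lost in 9 of 19 alternatives, in 2 of which, log2 TPM with limma, it turned to 0.06 and 0.07, and that of DUSP1 was lost in 4. In the cytoplasm 5 of these 30 genes rose, RHOB (1.34) and DUSP1 (0.59) among them, beside 10.4% of all genes, and in the nucleus none was called.

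Of all tested genes, 10.4% were called higher and 7.87% lower for the ratio, the shares beside which the next counts stand. Among 13 partner proteins of AP-1 and MYC, ATF2 alone was called for the ratio, which rose by 1.82 on the log2 scale. Among 19 upstream kinases and transcription factors, 4 had a higher ratio, led by the serum response factor partners ELK4 (1.26) and ELK3 (1.22) and by the kinase RPS6KA3 (1.13). In 4 it was lower, led by the kinases MAPK3 (ERK1, -0.67) and MAP2K2 (-0.56) and by ELK1 (-0.56). Among 8 AU-rich element binding proteins, TIA1 (0.84) and TIAL1 (0.54) had a higher ratio and none a lower one. None of these 3 groups had a call in the nucleus, where 792 of 16181 tested genes were called in either direction. In the cytoplasm 2 partner proteins were called higher and ATF2 (-1.68) lower. Of the upstream group 2 were higher and 5 lower, with ELK3 (-1.02), RPS6KA3 (-0.87) and ELK4 (-0.83) among the lower. Of the AU-rich element binding proteins TIA1 (-0.92) alone was called. Over all tested genes 1679 were called higher and 2305 lower there, against 1 control library. Of 19 alternatives, the ratio call was lost in 14 for MAP2K2, 12 for ELK1, 11 for TIAL1, 5 for ELK3, 4 for MAPK3, 3 for TIA1, 2 for RHOB, 2 for RPS6KA3 and in none for ATF2 and ELK4. Left-out libraries that ended the call included control nuclear replicate 3 and RNAi cytoplasmic replicate 2 for MAP2K2, ELK1, TIAL1, ELK3 and DUSP8.

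The mRNAs whose log2 CPM followed a member most closely over the 9 libraries were, among 8014 protein-coding genes of at least 10 mean CPM, VPS33B (Pearson r 0.94), FCSK (0.931) and ULK3 (0.928) for JUN, DLG5 (0.986), LINGO1 (0.98) and MID1 (0.98) for MYC, and ADGRA2 (0.967), LOXL1 (0.95) and FHOD3 (0.949) for ATF3. These values describe 4 groups of libraries that share fractions and treatments.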

How the data were processed

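Nuclear and cytoplasmic mRNA libraries were made with the Lexogen SENSE kit and sequenced by the authors, who trimmed the reads with cutadapt and ran Salmon against Ensembl release 75 transcripts of hg19 (version not given in the sources used here). Per transcript, the authors deposited an estimated count, a TPM value and transcript lengths. Here, transcripts were matched to GENCODE release 44 on GRCh37 (183122 of 215170, carrying 83.07% to 88.31% of counts), and counts were summed per gene and rounded. Members and gene lists were chosen with earlier results of these data known, and named genes were all members, the 3 list genes with the largest called change of the ratio in each direction, and the siRNA targets. FOSB, ID1 and DUSP6 were named after their values were seen.

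Groups came from the labels. Genes reaching 10 counts in 3 or more libraries entered edgeR 4.0.16 (TMM, 4 groups, quasi-likelihood, 5 residual degrees of freedom) in R 4.3.3, using the study's contrast and thresholds (0.5 on the log2 scale, adjusted p of 0.1). The code was tested on simulated data. Alternatives used limma 3.58.1, DESeq2 1.42.0, other filters and scalings, a replicate block and each sample left out. The labels do not say whether replicates were separate cultures, so p-values measure the spread between these samples, which may be technical. Floors and ranges of counts cover counting error only.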

Additional observations from a re-analysis of the deposited data

Results flagged for a closer look

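The interaction test of whether the effect of RNAi differed between nucleus and cytoplasm called 14 of the genes named in the report as members, targets or leading list genes, and it called further list genes that are not named. As log2 change of the nuclear/cytoplasmic ratio (edgeR), it was lower for JUN (-0.7454), RHOB (-1.06), MAPK3 (-0.6699), DUSP1 (-0.6542), DUSP8 (-0.6491), MAP2K2 (-0.5566) and ELK1 (-0.5551). It was higher for ATF2 (1.825), ELK4 (1.258), ELK3 (1.222), RPS6KA3 (1.134), WTAP (0.8924), TIA1 (0.8395) and TIAL1 (0.5387). WTAP is a target of the siRNAs. Each value rests on the 1 control cytoplasmic library. Over 19 alternatives the call was lost in 14 for MAP2K2, 12 for ELK1, 11 for TIAL1, 9 for DUSP8, 5 for JUN and ELK3, 4 for DUSP1 and MAPK3, 3 for TIA1, 2 for RHOB and RPS6KA3, 1 for WTAP and none for ATF2 and ELK4. Groups held at most 3 libraries, too few for a test of one library against the others of its group.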

How the results depend on the processing

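Counts of members past both thresholds changed with scaling and filter. In the nucleus, against 2, the count was 1 with library size only, 0 with limma on either log2 TPM scale, 0 at an adjusted p of 0.05, 4 with no filter, 4 with fractions of the same replicate number only, and 0 to 5 with single replicates left out. In the cytoplasm, against 3, it was 1 with library size only, 0 with limma on either scale, and 2 to 4 with single replicates left out. For the ratio, against 1, it was 0 with library size only and 0 with limma on either scale, 3 with no filter, 2 with a transcript length offset, 2 with same-numbered fractions only, and 0 to 2 with single replicates left out. The difference of the medians of intronless and spliced members, -0.104, was -0.576 with same-numbered fractions only and -0.385 to 0.0941 with single replicates left out.

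With library size only, nucleus against cytoplasm in RNAi cells became 0.2731 for JUNB and 0.248 for ATF3. With no filter, JUND in the nucleus became -0.02614 and JUN between fractions in RNAi cells -0.02275. With 10 counts in every sample, FOSL1 between fractions became 0.008447 in control cells, and in RNAi cells JUNB became 0.1828 and ATF3 0.1773. With the length offset, JUND became -0.1315 in the nucleus and 0.4209 between fractions in control cells, and ATF3 0.153 between fractions in RNAi cells. With limma on log2(TPM + 1) and log2(TPM + 0.1), in that order, the ratio of DUSP8 became 0.0644 and 0.06827, JUND in the nucleus -0.06142 and -0.06171, and ATF3 in the cytoplasm -0.01671 and -0.0177. On the same scales, fractions of control cells gave 0.5193 and 0.5224 for JUND, and those of RNAi cells gave 0.2792 and 0.2809 for JUND, 0.3554 and 0.3816 for JUNB and 0.5641 and 0.5769 for ATF3. With same-numbered fractions only, the ratio became 0.01739 for ATF3 and -0.3138 for EGR1, the nuclear difference -0.01717 for JUND and 0.276 for ATF3, and the RNAi fraction difference 0.05941 for ATF3. With single replicates left out, ranges that crossed 0 were, in the nucleus, -0.2484 to 0.012 for ATF3, -0.1085 to 0.2136 for FOSL1 and -0.05588 to 0.05326 for JUND. They were -0.2771 to 0.1481 for IER2 and -0.5647 to 0.02081 for JUNB in the cytoplasm, -0.1525 to 0.4659 for the EGR1 ratio, -0.2635 to 0.05292 for FOSL1 between control fractions, and -0.1457 to 0.1194 for ATF3 and -0.2594 to 0.3067 for JUNB between RNAi fractions. The cause was not tested.

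Samples with the same number were not taken as paired in the main fit. Deviations correlated at 0.212, 0.118 and 0.043 between control and RNAi nuclei 1, 2 and 3, at 0.144 and 0.061 between RNAi cytoplasm and RNAi nuclei 1 and 2, and at 0.252 and 0.241 between RNAi cytoplasm and control nuclei 1 and 2. All 7 were positive, but deviations within a group sum to 0, so the signs are not independent. Between control and RNAi nuclei of unlike number the correlations ran from -0.195 to 0.077. Between RNAi cytoplasm and nuclei of unlike number they ran from -0.252 to 0.086, the highest for RNAi cytoplasm 2 with RNAi nucleus 3. The 2 RNAi cytoplasmic libraries deviate from their mean in mirror image, so their correlations with any nucleus differ in sign only. A pairing by number was therefore not excluded. With the replicate number as a block, 2 members were called for the ratio (JUN, and IER2 at -0.99, adjusted p = 0.0407, edgeR), and 4038 genes in place of 2953. JUNB was also called in the nucleus (-0.64, adjusted p = 0.0535) and between control fractions (0.63, adjusted p = 0.0738). The block turned the EGR1 ratio to -0.08888, IER2 in the cytoplasm to 0.21 and JUNB between RNAi fractions to 0.001741. Without the control cytoplasmic library no cytoplasmic, ratio or control fraction contrast could be fitted.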
